A study of Mus musculus with 12 samples.

Results

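The genes described here are 10 transcripts that mark natural killer (NK) cells and cytotoxic lymphocytes: Ncr1, Klrb1c, Klrk1, Klrd1, Nkg7, Gzma, Gzmb, Prf1, Eomes and Tbx21. They were taken by gene name from a table of 37583 genes, and all 10 were found in it. Their levels were followed in blood of wild type mice that had all received a Burn/tenotomy injury, a skin burn combined with the cutting of a tendon. Blood was enriched on the iChip, a microfluidic cell sorter, and total RNA of the enriched cells, which the labels call cMPCs and blood cells, was sequenced with the Seqwell Rapid kit. The 12 libraries fell into 3 groups of 4, named 6h, Day1 and Day7 after the time since injury. An uninjured group was not analysed here, so each time was compared with the other times. The sources used here give no strain, sex or age. Nor do the labels call the replicates separate animals, and p-values therefore reflect the spread among these libraries, part of which may be technical.

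NK cells are innate lymphocytes that circulate in blood and kill infected, stressed or transformed cells without prior priming. Surface receptors set the decision to kill, and killing is carried out by release of granules that hold perforin, which opens the target cell membrane, and granzymes, proteases that enter through it. The T-box factors encoded by Eomes and Tbx21 direct NK cell development and the granule programme, which cytotoxic CD8+ T cells share. Ncr1 and Klrb1c are the members most restricted to NK cells and related innate lymphocytes, whereas Klrk1, Klrd1, Nkg7 and the granule genes are also made by activated CD8+ T cells.

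Library totals ran from 5098395 to 12379041 reads, and haemoglobin genes took 16.1% to 70.3% of them. Levels are the deposited values, which are reads scaled to an effective library size, so that 1 read was worth 0.0314 to 0.617 units, and a library with 0 reads of a gene allowed up to 3 reads of the library total. Reads carried no stated molecular identifiers and are not independent molecules, so floors and intervals cover counting error only. Libraries that stood apart were 6h replicate 1, with 5227 reads of the T cell chain genes Cd3e, Cd3d, Cd3g, Cd8a and Cd8b1, and Day7 replicate 3, with 2 reads of the leukocyte gene Ptprc. Reads of Ptprc ranged over 3 to 702 in the 6h libraries, 288 to 680 in the Day1 libraries and 2 to 533 in the Day7 libraries. The cell mixture therefore differed between libraries of one group, and in bulk samples fewer cells of a type cannot be told apart from less RNA per cell.

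Reads of the 10 genes were few and unevenly spread. They totalled 1271, 43, 21 and 362 in 6h replicates 1 to 4, 358, 181, 172 and 892 in Day1 replicates 1 to 4, and 535, 218, 1 and 81 in Day7 replicates 1 to 4. Day7 replicate 3 had a single read, of Gzmb, and gave almost no information on these genes. Of the 10 genes, 4, 3, 2 and 4 were detected in 6h replicates 1 to 4, 10, 5, 4 and 6 in Day1 replicates 1 to 4, and 8, 9, 1 and 9 in Day7 replicates 1 to 4. All 10 were thus found together in 1 library, Day1 replicate 1. Averaged over the 12 libraries and divided by transcript length, Gzma had the highest level at 19.4 units per kb, followed by Nkg7 at 9.71 and Klrd1 at 4.71. The place of Gzma rests on 6h replicate 1: over the other 11 libraries Nkg7 averaged 6.56 units per kb, Gzma 5.10 and Klrd1 4.05. Prf1, Klrk1, Gzmb and Ncr1 had 0.728, 0.691, 0.613 and 0.375 units per kb, and the lowest were Tbx21, Eomes and Klrb1c at 0.0948, 0.0786 and 0.0318.

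**Figure D1:**
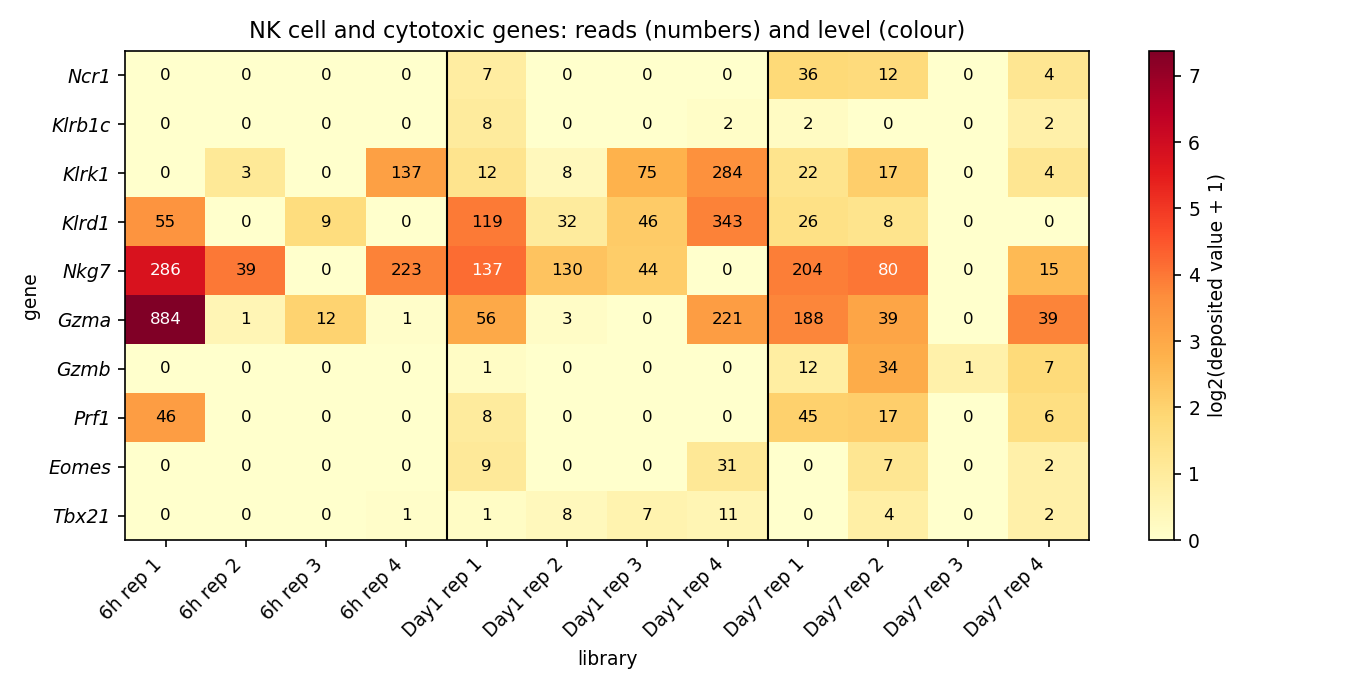
Reads of each of the 10 genes (numbers, rows) in each of the 12 libraries (columns), coloured by log2(deposited value + 1). Gzma in 6h replicate 1 has 884 reads, Day7 replicate 3 has 1 read in all, and Ncr1, Klrb1c, Gzmb and Eomes have 0 reads in every 6h library.

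Of the NK-defining pair, Ncr1 encodes NKp46, an activating receptor of NK cells. It had 0 reads in the 4 libraries of 6h, 7, 0, 0 and 0 reads in Day1 replicates 1 to 4, and 36, 12, 0 and 4 reads in Day7 replicates 1 to 4. As deposited values these were 0.865 in Day1 replicate 1 and 2.48, 2.30 and 1.33 in Day7 replicates 1, 2 and 4. Ncr1 was thus read in 0 of 4 libraries at 6h, 1 of 4 at Day1 and 3 of 4 at Day7, with Day1 and Day7 overlapping at 0. Over the pooled reads of a group, divided by all reads of its libraries, Ncr1 was at least 13.4-fold higher at Day7 than at 6h. For this bound 6h was set to a floor of 3 reads over the group, and the Day7 reads were taken as counted. Without Day7 replicate 1, which held most of the reads, that bound was 5.76-fold. Klrb1c, which encodes the NK1.1 receptor, had 8 and 2 reads in Day1 replicates 1 and 4 and 2 and 2 reads in Day7 replicates 1 and 4, and 0 in the other 8 libraries. Its reads may be shared with near-identical Klrb1 relatives. NK-defining reads were thus few in the labelled blood cell mixture, and none were detectable at 6h at this depth.

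Among the lectin-like receptors, Klrk1 encodes NKG2D, an activating receptor for stress ligands. Its deposited values were 0, 1.14, 0 and 8.21 in 6h replicates 1 to 4, 1.48, 0.251, 5.69 and 11.1 in Day1 replicates 1 to 4, and 1.51, 3.25, 0 and 1.33 in Day7 replicates 1 to 4. The group means were 2.34 ± 3.95 at 6h, 4.62 ± 4.88 at Day1 and 1.52 ± 1.34 at Day7 (SD, n = 4 each), and the ranges of all 3 groups overlapped. Klrd1 encodes CD94, the partner of the NKG2 receptors. It stood at 10.3, 0, 2.17 and 0 in 6h replicates 1 to 4, at 14.7, 1.00, 3.49 and 13.4 in Day1 replicates 1 to 4, and at 1.79, 1.53, 0 and 0 in Day7 replicates 1 to 4. The 2 highest values were in Day1, every Day1 library had reads, and the lowest Day1 library lay below 2 Day7 libraries. Klrd1 averaged 3.11 ± 4.88 at 6h, 8.14 ± 6.90 at Day1 and 0.830 ± 0.964 at Day7 (SD, n = 4 each).

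Of the granule genes, Gzma encodes granzyme A. It had deposited values of 165, 0.379, 2.90 and 0.0599 in 6h replicates 1 to 4, 6.92, 0.0942, 0 and 8.60 in Day1 replicates 1 to 4, and 12.9, 7.46, 0 and 13.0 in Day7 replicates 1 to 4. A single library, 6h replicate 1, set the 6h mean of 42.1 ± 82.0 (SD, n = 4), against 3.90 ± 4.51 at Day1 and 8.34 ± 6.13 at Day7 (SD, n = 4 each). Nkg7 encodes a granule membrane protein needed for release of the granule contents. Its values were 53.4, 14.8, 0 and 13.4 in 6h replicates 1 to 4, 16.9, 4.08, 3.34 and 0 in Day1 replicates 1 to 4, and 14.0, 15.3, 0 and 4.99 in Day7 replicates 1 to 4. Each group held 1 library with 0 reads of Nkg7, and the ranges overlapped throughout.

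Prf1, which encodes perforin, had 46 reads in 6h replicate 1, 8 reads in Day1 replicate 1, and 45, 17 and 6 reads in Day7 replicates 1, 2 and 4, with 0 in the other 7 libraries. It was thus read in 1, 1 and 3 of 4 libraries at 6h, Day1 and Day7. Gzmb, which encodes granzyme B, had 0 reads in all 4 libraries of 6h, 1 read in Day1 replicate 1 and 0 in the other Day1 libraries, and 12, 34, 1 and 7 reads in Day7 replicates 1 to 4. Its deposited values were 0.825, 6.51, 0.617 and 2.33 in the Day7 libraries, all above the highest Day1 value of 0.124. In deposited values, Gzmb was the 1 member of 10 whose Day7 libraries all lay above those of Day1, and above those of 6h. The shares of all genes with a read that were higher in this way were 4.85% for Day7 versus Day1 and 2.08% for Day7 versus 6h. For 0 members did all Day7 values lie below those of Day1 or of 6h, as 9.42% and 1.38% of genes did. The Gzmb separation from Day1 rests on 1 read in Day7 replicate 3 and on the scaling. Scaled to all reads of the library, an alternative added for this count after the data were seen, that read gave 0.110 CPM and the 1 read of Day1 replicate 1 gave 0.190 CPM, so Day7 and Day1 overlapped. Under it 0 members lay higher at Day7 than at Day1 in this way (0.294% of genes) and Klrd1 alone lay lower (18.8% of genes), while Gzmb still separated Day7 from 6h (0.628% of genes). Over pooled reads, Gzmb was 48.6-fold higher at Day7 than at Day1 (exact 95% interval 8.36 to 1954, from 54 reads and 1 read), and 23.4-fold without Day7 replicate 2. Relative to 6h it was at least 14.0-fold higher at Day7, or at least 6.72-fold without Day7 replicate 2.

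**Figure D2:**
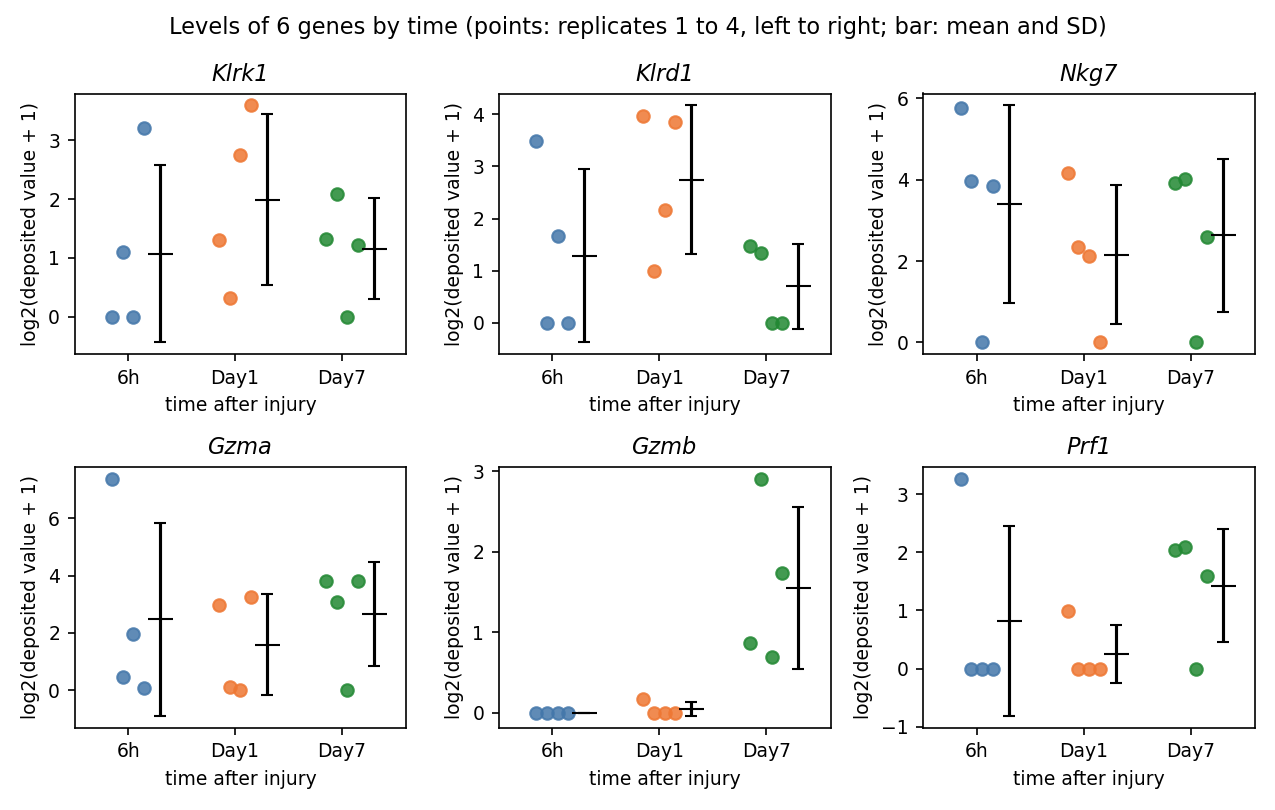
Log2(deposited value + 1) of 6 genes at 6h, Day1 and Day7, 4 libraries each, as points in replicate order, with the mean and SD as a bar. Gzmb lies above its Day1 and 6h deposited values in all 4 Day7 libraries, an order that for Day1 depends on the scaling, Klrd1 is highest in Day1 replicates 1 and 4, and 1 library of 6h lies far above the rest for Gzma.

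Both T-box factors were low. Eomes had 0 reads in the 4 libraries of 6h, 9 and 31 reads in Day1 replicates 1 and 4 and 0 in the other Day1 libraries, and 7 and 2 reads in Day7 replicates 2 and 4. From pooled reads divided by all reads, its Day1 level was at least 11.5-fold higher than that of 6h, or at least 3.63-fold without Day1 replicate 4. These bounds set a floor on the 6h reads alone and take the Day1 reads as counted. Scaled to all reads, the median limma log2 fold change of all tested genes was 1.57 for Day1 versus 6h. Tbx21, which encodes T-bet, had 0, 0, 0 and 1 reads in 6h replicates 1 to 4, 1, 8, 7 and 11 in Day1 replicates 1 to 4, and 0, 4, 0 and 2 in Day7 replicates 1 to 4. Its Day1 values of 0.124 to 0.531 all lay above the highest 6h value of 0.0599, a separation that rests on 1 read in Day1 replicate 1 and that 4.07% of all genes with a read showed. It was also present when scaled to all reads, where 11.9% of genes were higher in this way. For 0 members were all Day1 values below those of 6h (0.504% of genes). The pooled ratio of Day1 to 6h was 23.3 for Tbx21 (exact 95% interval 3.84 to 953, from 27 reads and 1 read). Reads of any transcript that overlaps Eomes, or another member, on the other strand could not be told apart from its own. No source used here says whether counting used strand.

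The make-up of the reads on the 10 genes also differed between libraries. In 6h replicate 1, Gzma alone took 69.6% of them (Clopper-Pearson 95% interval 66.9 to 72.1), and the 4 granule genes Nkg7, Gzma, Gzmb and Prf1 together took 95.7% (94.4 to 96.7). In 6h replicate 4 the granule genes took 61.9% (56.7 to 66.9) and the 4 receptors 37.8% (32.8 to 43.1), so libraries of 6h differed among themselves. The granule genes took 83.9%, 78.0% and 82.7% in Day7 replicates 1, 2 and 4, against 56.4%, 73.5%, 25.6% and 24.8% in Day1 replicates 1 to 4. The receptors Ncr1, Klrb1c, Klrk1 and Klrd1 took 16.1%, 17.0% and 12.3% in these Day7 libraries, against 40.8%, 22.1%, 70.3% and 70.5% in the Day1 libraries. Receptor shares in the 3 Day7 libraries thus lay below, and granule shares above, those of every Day1 library. Day7 replicate 3, with 1 read, gave no share, and the grouping into receptors and granule genes was compared without a test. Receptor intervals of Day7 replicates 1, 2 and 4 were 13.1% to 19.5%, 12.2% to 22.6% and 6.08% to 21.5%. All overlap that of Day1 replicate 2, 16.3% to 28.9%. Granule intervals of Day7 replicates 2 (71.9% to 83.3%) and 4 (72.7% to 90.2%) also overlap that of Day1 replicate 2, 66.4% to 79.8%. The granule interval of Day7 replicate 1, 80.5% to 86.9%, does not.

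**Figure D3:**
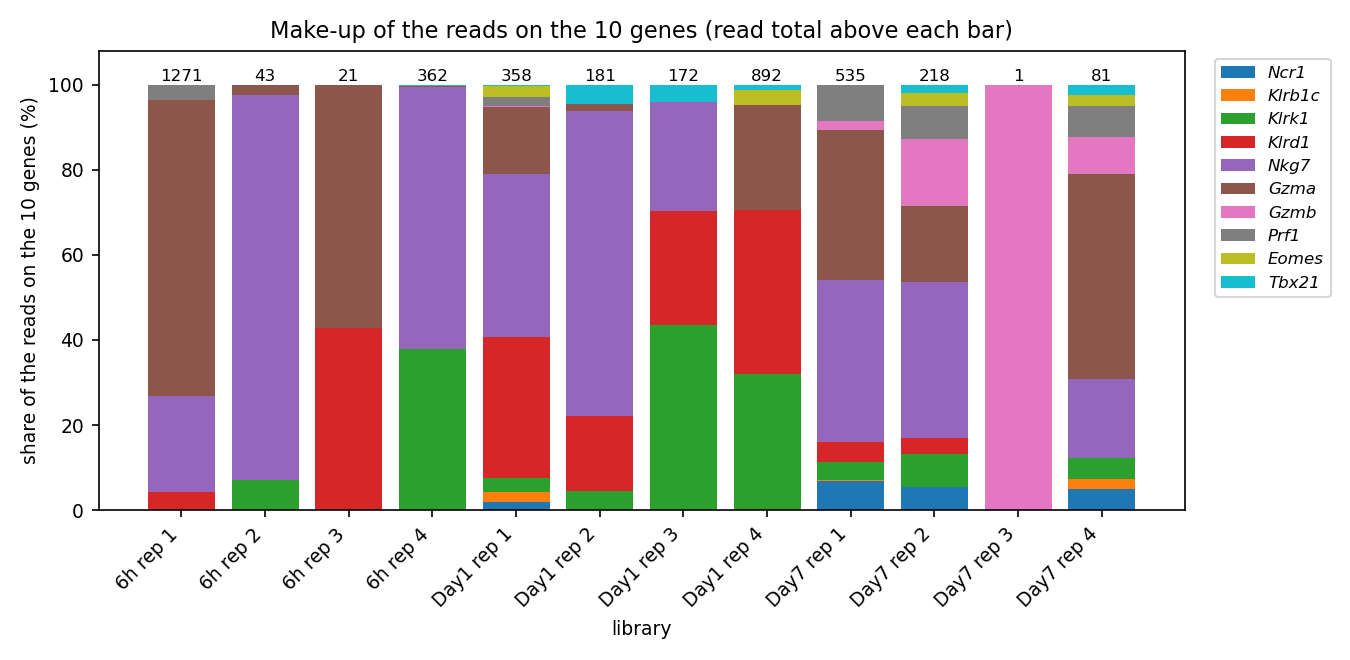
Share of the reads on the 10 genes that each gene took, in percent, for the 12 libraries, with the read total above each bar. Gzma fills 69.6% of the bar of 6h replicate 1, Klrk1 and Klrd1 fill most of the bars of Day1 replicates 3 and 4, and the bar of Day7 replicate 3 stands for 1 read.

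For 3 members the sequence before the transcription start is shown, because their reads were found in Day7 replicates 1, 2 and 4 and in at most 1 library each of 6h and Day1; these 3 were picked after their values were seen. Each line is the 250 bases before the start on the gene's own strand, from RefSeq on GRCm38.p6, which is a later build than the mm9 of the deposited table. Capitals mark the T-box core motif (GTGTGA, or TCACAC on the other strand) and the Runx motif (ACCACA, or TGTGGT on the other strand), which did not overlap each other. The windows are chr7:4337465-4337714 on the plus strand for Ncr1, chr14:56262335-56262584 on the minus strand for Gzmb and chr10:61297586-61297835 on the plus strand for Prf1.
Ncr1: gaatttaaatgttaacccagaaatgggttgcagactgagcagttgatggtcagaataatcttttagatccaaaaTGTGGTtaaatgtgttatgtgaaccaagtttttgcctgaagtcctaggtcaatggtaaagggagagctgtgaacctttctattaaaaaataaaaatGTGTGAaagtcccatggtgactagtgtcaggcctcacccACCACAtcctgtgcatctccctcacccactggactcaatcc
Gzmb: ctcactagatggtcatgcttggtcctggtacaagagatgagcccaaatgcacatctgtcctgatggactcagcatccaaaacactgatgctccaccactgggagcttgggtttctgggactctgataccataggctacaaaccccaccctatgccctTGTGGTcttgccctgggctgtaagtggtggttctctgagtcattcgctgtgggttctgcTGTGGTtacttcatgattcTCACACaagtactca
Prf1: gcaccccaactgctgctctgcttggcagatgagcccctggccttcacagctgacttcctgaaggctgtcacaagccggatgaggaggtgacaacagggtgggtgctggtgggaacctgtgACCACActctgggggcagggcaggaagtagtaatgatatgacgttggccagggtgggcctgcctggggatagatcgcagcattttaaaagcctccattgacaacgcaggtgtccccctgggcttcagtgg
Counted back from the start site, the T-box core began at base -80 in Ncr1 and base -15 in Gzmb, and the Runx motif at bases -41 and -176 in Ncr1, -93 and -34 in Gzmb and -130 in Prf1. A promoter entry was found for 9 of the 10 members, all but Klrd1. The T-box core was in 3 of the 9 (Ncr1, Nkg7 and Gzmb), against 12.3% of 32851 promoters of the same length. The Runx motif was in 7 of the 9, all but Eomes and Tbx21, against 14.0% of all. Of the other motifs searched on both strands, the longer T-box form GGTGTGA was in 1 member (3.33% of all), the ETS core AGGAAG in 4 (29.5% of all) and the STAT form TTCNNNGAA in 1 (7.02% of all). The longer T-box form contains the T-box core. A match is a description of letters in this window and was not tested as a binding site.

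Across all genes, limma was fitted to log2(value + 1) of the 12 libraries, and 5 of the 10 members passed the filter, which asked for 4 or more libraries with a value of 1 or more: Klrk1, Klrd1, Nkg7, Gzma and Prf1. Ncr1, Klrb1c, Gzmb, Eomes and Tbx21 lay below it. For Day1 versus 6h, 0 of the 5 passed the limma threshold of adjusted p 0.05, where 0.169% of 11211 tested genes did, and 0 had an unadjusted p under 0.05, as 11.2% of tested genes did; on the recovered reads edgeR and DESeq2 also called 0, where they called 0.0803% and 1.78% of genes. For Day7 versus Day1, limma called 0 of the 5 where 5.78% of all tested genes passed, and 1 of them, Klrd1, had an unadjusted p under 0.05, as 29.1% of tested genes did; edgeR and DESeq2 called 0, where they called 0.00892% and 16.3% of genes. For Day7 versus 6h, limma called 0 of the 5 where 0.883% of all tested genes passed, with 0 at an unadjusted p under 0.05 (18.0% of tested genes) and 0 called by edgeR and DESeq2, which called 0.749% and 9.96% of genes. DESeq2 gave no adjusted p for Gzma.

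The largest limma difference among the 5 was that of Klrd1 between Day7 and Day1, a log2 fold change of -2.04 (SE 0.89, limma adjusted p = 0.132). Scaling the libraries to all reads gave -2.95 (limma adjusted p = 0.0195), where 3963 of the 11211 tested genes were called. With reads outside haemoglobin as the total, Klrd1 gave -3.51 (limma adjusted p = 0.0289), where 3553 of them were called. The call on Klrd1 thus depended on the scaling. Over all settings tried, edgeR and DESeq2 included, the adjusted p of Klrd1 in this comparison ran from 0.0195 to 0.333. The median over all tested genes, -0.48 as deposited, was -1.78 and -1.92 under these scalings. Klrd1 between Day1 and 6h gave 1.46 (SE 0.89, limma adjusted p = 0.539). Klrk1 gave 0.92 (SE 0.85) for Day1 versus 6h and -0.83 (SE 0.85) for Day7 versus Day1, with limma adjusted p of 0.716 and 0.530.

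For the granule genes, Day7 versus Day1 gave log2 fold changes of 0.47 for Nkg7 (SE 1.14), 1.08 for Gzma (SE 1.28) and 1.18 for Prf1 (SE 0.69), with limma adjusted p of 0.808, 0.595 and 0.257. Day1 versus 6h gave -1.24, -0.88 and -0.57 for the same genes, with limma adjusted p of 0.713, 0.831 and 0.794. The count models gave larger differences for Day1 versus 6h: in edgeR -1.65 for Nkg7, -3.31 for Gzma and -2.97 for Prf1, and in DESeq2 -1.74, -3.53 and -3.14, with edgeR adjusted p of 0.952, 0.867 and 0.952. For Day7 versus Day1 they gave 3.14 and 2.51 for Prf1, against -3.06 and -3.63 for Klrd1 and -1.37 and -1.97 for Klrk1, in edgeR and DESeq2 in that order, and called 0 of these. Without 6h replicate 1 the limma values for Day1 versus 6h turned to 0.76 for Gzma and 0.25 for Prf1, and that of Nkg7 was -0.45. Day7 versus 6h lay between -0.77 and 0.61 for all 5 genes, with SE of 0.69 to 1.28. The median of the 5 was -0.57, 0.47 and 0.09 for Day1 versus 6h, Day7 versus Day1 and Day7 versus 6h, against 0.52, -0.48 and 0.13 over all tested genes. The comparisons share libraries and are not independent of each other.

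**Figure D4:**
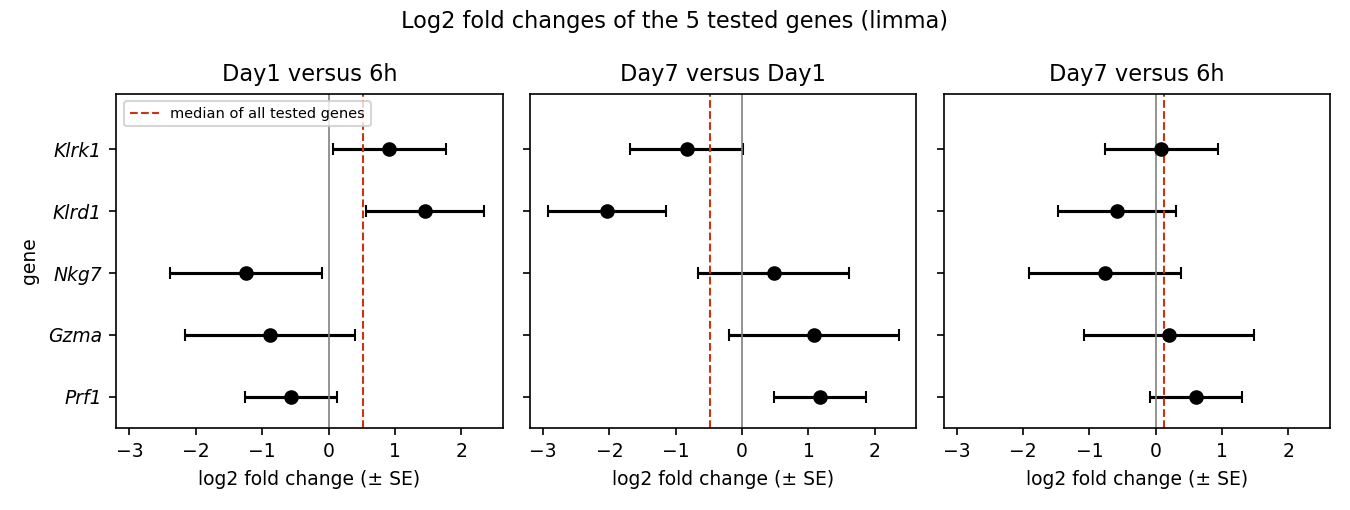
Log2 fold changes (points) with SE (bars) of the 5 tested genes in the 3 comparisons, from limma on log2(value + 1), with the median of all tested genes as a dashed line. Klrd1 at -2.04 in Day7 versus Day1 lies farthest from 0, and 0 of the 5 genes passed the adjusted threshold in any panel.

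With no filter on low values, all 10 members were tested by limma among 20052 genes. Again 0 passed in each comparison, where 0%, 0.284% and 0.0648% of genes did for Day1 versus 6h, Day7 versus Day1 and Day7 versus 6h; 0, 2 and 2 of the 10 members had an unadjusted p under 0.05, against 8.82%, 19.3% and 10.9% of genes. Gzmb gave a log2 fold change of 1.51 for Day7 versus Day1 (limma adjusted p = 0.106) and 1.55 for Day7 versus 6h (limma adjusted p = 0.239). Ncr1 gave 0.96 for Day7 versus Day1 (limma adjusted p = 0.193) and 1.18 for Day7 versus 6h (limma adjusted p = 0.278). On the recovered reads with no filter, a test added after the data were seen, DESeq2 called Gzmb higher at Day7 than at Day1 (adjusted p = 0.0180), where it called 13.3% of genes, whereas edgeR, which called 3.41%, gave an adjusted p of 0.163. For Gzmb between Day7 and 6h the adjusted p was 0.0614 in DESeq2 and 0.154 in edgeR, which called 8.46% and 2.86% of genes. For Day1 versus 6h they called 0 of the members given an adjusted p, and 1.75% and 1.39% of genes. DESeq2 gave no adjusted p for 5 of the 10 members in Day1 versus 6h and in Day7 versus 6h (Ncr1, Klrb1c, Gzma, Eomes and Tbx21), nor for 3 in Day7 versus Day1 (Klrb1c, Gzma and Tbx21).

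The T cell chain genes of Cd3 and Cd8 and the granule genes Gzma, Nkg7 and Prf1 had their highest values in the same library, 6h replicate 1, whereas Gzmb had 0 reads there. The Cd3 and Cd8 chains, a list of 5 drawn up after the data were seen, summed to 976 units in 6h replicate 1, against 2.41 to 26.9 in the other 6h libraries, 1.37 to 23.6 in the Day1 libraries and 0 to 39.6 in the Day7 libraries. That library had 1039 reads of Cd8a and 1118 of Cd8b1. Among the members it had 884 reads of Gzma, 286 of Nkg7, 55 of Klrd1 and 46 of Prf1. Reads of Ncr1, Klrb1c, Klrk1, Gzmb, Eomes and Tbx21 were 0. The full T cell list of 12 genes was led in several libraries by Lat. It had 2578 of 3037 list reads in 6h replicate 4, 2963 of 3834 in Day7 replicate 1 and 1007 of 1361 in Day1 replicate 2. Its highest deposited value was 279 in Day7 replicate 4, against 200 in 6h replicate 1. Without Lat, which was left out after the data were seen, the other 11 genes summed to 5.79 to 1172 units in 6h libraries, 10.4 to 81.4 in Day1 libraries and 0.617 to 59.9 in Day7 libraries. In Day7 replicate 2, which had the most Gzmb reads, Cd3e, Cd8a and Cd8b1 had 0 reads, and Cd3d, Cd3g and Cd247 had 79, 17 and 17. The part of T cells in the granule gene levels was not tested beyond these values.

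Markers of other blood cells also varied between libraries. Sums over marker lists are in deposited units, and the order of libraries by them can depend on the scaling. Sums of the 5 platelet genes were 174 to 22380 units in 6h libraries, 800 to 5526 in Day1 libraries and 20350 to 34964 in Day7 libraries, with 6h replicate 4 as the highest 6h library. Of these 5, limma called 2 higher in Day7 versus Day1 and 2 in Day7 versus 6h, where 5.78% and 0.883% of all tested genes passed. With no filter it called 1 and 0 of them. Sums of 7 neutrophil genes were 3.38 to 135 in 6h libraries, 0.272 to 76.5 in Day1 libraries and 76.6 to 715 in Day7 libraries. Of the 5 of them that were tested, S100a8 rose in Day7 versus Day1 (log2 fold change 4.17, SE 1.20, limma adjusted p = 0.0433), where 5.78% of tested genes passed. The median of the 5 in this comparison was 2.48, against -0.48 over all tested genes. With no filter limma called 0 of the 7. For 7 B cell genes the sums were 21.2 to 217 in 6h libraries, 57.9 to 177 in Day1 libraries and 4.93 to 301 in Day7 libraries, ranges that overlap, and limma called 0 of the 7 in each comparison, with 0, 0 and 1 at an unadjusted p under 0.05. The shares of tested genes at that unadjusted level were 11.2%, 29.1% and 18.0% for Day1 versus 6h, Day7 versus Day1 and Day7 versus 6h. Neither edgeR, DESeq2 nor the other scalings were summarised for the platelet, neutrophil and B cell lists. For 4 plasmacytoid dendritic cell genes the sums were 37.2 to 251 in 6h libraries, 110 to 370 in Day1 libraries and 25.3 to 117 in Day7 libraries, ranges that overlap. Of these genes, Siglech alone had 1 to 651 reads in 6h libraries, 381 to 1499 in Day1 libraries and 0 to 26 in Day7 libraries. Mesenchymal genes, which would mark the labelled cMPCs, summed to 11.4 to 1096 units in 6h libraries, 250.5 to 1370 in Day1 libraries and 6.79 to 487 in Day7 libraries. For 6 mast cell and basophil genes the sums were 9.47 to 106 in 6h libraries, 12.2 to 50.9 in Day1 libraries and 19.1 to 388 in Day7 libraries. Of these genes, Cpa3 and Cma1 had 1020 and 2370 reads in Day7 replicate 1, where Ms4a2, Mcpt8 and Prss34 had 3, 1 and 26. Day7 replicate 2 had 0 reads of Cpa3 and 12 of Cma1, out of 597 on the list. Y-linked transcripts (Ddx3y, Eif2s3y, Kdm5d, Uty) were read in replicates 3 and 4 of 6h, in replicates 2, 3 and 4 of Day1 and in 0 Day7 libraries, so this feature and time were mixed unevenly. The part of these differences in the levels of the 10 genes was not tested.

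**Figure D5:**
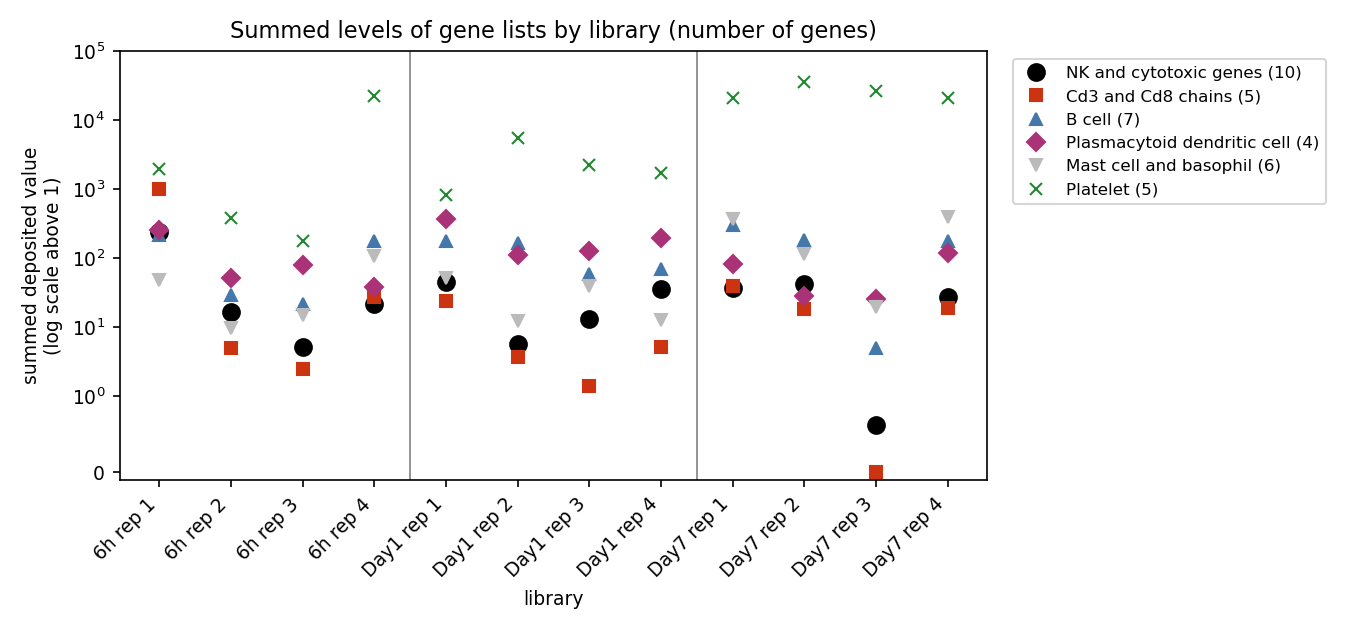
Summed deposited value of the 10 NK and cytotoxic genes and of 5 lists of other cell types in each library, on a scale that is logarithmic above 1. The Cd3 and Cd8 chains reach 976 in 6h replicate 1, and the platelet genes lie at 20350 or above in every Day7 library and at 22380 in 6h replicate 4.

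A wider list of 30 NK receptors and adaptors had reads for 26 in some library, and 9 were tested. In Day7 versus Day1, 2 of the 9 rose and 0 fell, where 5.78% of all tested genes passed. The median log2 fold change of the 9 was 0.61 against -0.48 over all tested genes. With no filter, that of the 26 was -0.06, with 11 positive and 15 negative, against -0.11 over all genes. Fcer1g, the Fc receptor gamma chain that signals for several activating receptors, had values of 858, 1656, 1655 and 754 in Day7 replicates 1 to 4, against 60.1, 207, 49.5 and 92.9 in Day1 replicates 1 to 4. Its log2 fold change was 3.71 (SE 1.01, limma adjusted p = 0.0382). Cd226, which encodes the activating receptor DNAM-1, had 92.7, 185, 75.9 and 76.5 in Day7 replicates 1 to 4, against 7.17, 27.3, 2.88 and 7.05 in Day1 replicates 1 to 4, a log2 fold change of 3.45 (SE 1.01, limma adjusted p = 0.0457). Both genes are also made by platelets, and Fcer1g by neutrophils. In deposited units the platelet sum was also higher in every Day7 library than in every Day1 library, an order that depends on the scaling. Platelet reads were 42019 in Day7 replicate 3, of 9096780 in all, and 175979 in Day1 replicate 2, of 11209057. Neutrophil sums of Day7 replicate 2 and Day1 replicate 3 were 76.6 and 76.5 units, from 400 and 1009 reads. The part of either cell type was not tested.

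In Day7 versus 6h, 2 of the 9 rose and 0 fell, where 0.883% of all tested genes passed. The median of the 9 was 1.13 against 0.13 over all tested genes, and that of the 26 with no filter was 0.27 against 0. Cd226 had a log2 fold change of 4.18 (SE 1.01, limma adjusted p = 0.0449), and Hcst, which encodes DAP10, the adaptor of NKG2D, one of 4.43 (SE 0.95, limma adjusted p = 0.0285). Hcst stood at 35.2, 47.7, 136 and 29.6 in Day7 replicates 1 to 4, against 0.373, 0, 0 and 24.0 in 6h replicates 1 to 4. In deposited units the highest Hcst value lay in Day7 replicate 3, a place that depends on the scaling. There 1 read was worth 0.617 units, against 0.0688 in Day7 replicate 1 and 0.0599 in 6h replicate 4. Day7 replicate 3 had 0 reads of Klrk1, the receptor that Hcst serves. In Day1 versus 6h, 0 of the 9 passed in limma (0.169% of tested genes), with 0 at an unadjusted p under 0.05 (11.2% of tested genes). Tyrobp, the DAP12 adaptor, averaged 69.0 ± 117 at 6h, 52.1 ± 25.6 at Day1 and 44.6 ± 45.9 at Day7 (SD, n = 4 each).

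Of 16 further genes of the granule and killing machinery, 11 were tested. In Day7 versus Day1, 2 rose and 0 fell, where 5.78% of all tested genes passed, and limma called 0 for Day1 versus 6h and for Day7 versus 6h, where 0.169% and 0.883% passed. At an unadjusted p under 0.05 there were 0 and 3 of the 11, against 11.2% and 18.0% of tested genes. Srgn encodes serglycin, the proteoglycan that packs granule contents, in platelets too. It had 738, 1267, 1429 and 993 in Day7 replicates 1 to 4, against 30.9, 178, 64.9 and 84.5 in Day1 replicates 1 to 4, a log2 fold change of 3.83 (SE 1.03, limma adjusted p = 0.0361). Stx11, a SNARE protein needed for granule fusion in NK cells and platelets, had 524, 586, 125 and 306 in Day7 replicates 1 to 4, against 15.9, 60.7, 41.3 and 23.8 in Day1 replicates 1 to 4, a log2 fold change of 3.35 (SE 0.97, limma adjusted p = 0.0453). The medians of the 11 were 0.01, 1.01 and 0.95 for Day1 versus 6h, Day7 versus Day1 and Day7 versus 6h, against 0.52, -0.48 and 0.13 over all tested genes. With no filter, those of the 15 with reads were 0.16, 0.09 and 0.24, against 0.17, -0.11 and 0. Lamp1, a membrane protein of lysosomes and granules, averaged 105 ± 75.1 at 6h, 75.5 ± 52.9 at Day1 and 251 ± 76.4 at Day7 (SD, n = 4 each).

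The calls on these genes depended on the libraries and the scaling, while the direction was the same in every setting tried. Each of the 4 calls in Day7 versus Day1 was lost when any 1 of 7 (Fcer1g, Cd226, Srgn) or 8 (Stx11) of the 12 libraries was left out, namely any Day1 library or Day7 replicate 2, 3 or 4, and for Stx11 also Day7 replicate 1. The log2 fold changes in these fits ran over 3.44 to 4.13 for Fcer1g, 3.04 to 3.99 for Cd226, 3.42 to 4.25 for Srgn and 3.04 to 3.82 for Stx11. All 4 were lost when the libraries were scaled to all reads, with log2 fold changes of 1.55, 1.40, 1.67 and 1.22 in the same order, or to reads outside haemoglobin, with 1.86, 1.74, 1.98 and 1.52. They were also lost with the term for Y-linked reads and in edgeR with the filter (adjusted p 0.111 to 0.145). The calls on Cd226 and Stx11 were lost too with a pseudocount of 0.25 and with median-of-ratios scaling (limma adjusted p 0.0508 to 0.0658). DESeq2 with the filter called Fcer1g, Srgn and Stx11 and gave Cd226 an adjusted p of 0.0534, and edgeR and DESeq2 with no filter called the same 3 genes. In Day7 versus 6h, the call on Cd226 was lost in 11 of 12 such fits, all but the one without 6h replicate 4. That on Hcst was lost in 4 of 12, those without 6h replicates 2 and 3 and Day7 replicates 3 and 4. Of 13 other settings, 10 lost the call on Cd226 and 8 that on Hcst. For both genes these included scaling to all reads, scaling to reads outside haemoglobin and a pseudocount of 4. The log2 fold changes ran over 3.51 to 5.47 for Cd226 and 3.96 to 5.55 for Hcst, and edgeR and DESeq2 gave 2.37 and 2.22 for Cd226 and 3.06 and 3.23 for Hcst and called 0 of both. With no filter on low values limma called 0 of these genes. The summed value of the platelet list was 20350 to 34964 in the Day7 libraries, against 800 to 5526 in the Day1 libraries, and 6h replicate 4, with 22380, also had the highest 6h values of Fcer1g (821), Cd226 (79.5), Hcst (24.0), Srgn (1079) and Stx11 (459). The neutrophil list, as given above, was 76.6 to 715 in the Day7 libraries, against 0.272 to 76.5 in the Day1 libraries. Both lists are summed in deposited units, and their order between Day7 and Day1 libraries depends on the scaling. The part of platelets and neutrophils in these values was not tested.

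Of 14 further transcription factors of NK cells, 13 were matched by name, 9 were tested and limma called 0 in each comparison, where 0.169%, 5.78% and 0.883% of tested genes passed for Day1 versus 6h, Day7 versus Day1 and Day7 versus 6h. At an unadjusted p under 0.05 there were 0, 3 and 4 of the 9, against 11.2%, 29.1% and 18.0% of tested genes. Klf2, which controls lymphocyte trafficking, averaged 86.1 ± 48.0 at 6h, 100 ± 36.1 at Day1 and 25.7 ± 17.4 at Day7 (SD, n = 4 each). Id2, an inhibitor of E proteins needed for innate lymphocytes, averaged 131 ± 169, 48.1 ± 24.6 and 14.5 ± 10.3 at these times, and Zeb2, a factor of NK cell maturation, 37.9 ± 29.8, 41.9 ± 30.1 and 37.4 ± 20.6. On the recovered reads DESeq2 called Id2 lower in Day7 versus 6h (log2 fold change -3.78, adjusted p = 0.00318), where it called 9.96% of genes. DESeq2 also called Klf2 lower in Day7 versus Day1 (-2.35, adjusted p = 0.0357), where it called 16.3%. With no filter the DESeq2 adjusted p were 0.00665 and 0.0485. The limma adjusted p were 0.108 and 0.0781, and edgeR gave 0.157 and 0.265. Of 22 genes for cytokines, their receptors and trafficking, 15 were tested and limma called 0 in each comparison, with 3, 0 and 2 of the 15 at an unadjusted p under 0.05, against the same background shares. Il2rg, the receptor chain shared by interleukin 2 and interleukin 15, had 302 in 6h replicate 1, against 1.51 to 14.9 in the other 6h libraries, at most 36.7 in a Day1 library and at most 22.7 in a Day7 library. Il15ra, which presents interleukin 15, had 128 in the same library and at most 5.84 in any other. With no filter, edgeR called Il15ra lower in Day7 versus 6h (log2 fold change -4.79, adjusted p = 0.0211), where it called 2.86% of genes. With the filter edgeR gave an adjusted p of 0.218 and limma 0.388, and DESeq2 gave none.

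The genes outside all lists whose log2 values followed the mean of the 5 tested members most closely over the 12 libraries were Arhgap15, Map2k6, Tnfrsf18, Selplg and Ms4a4c, out of 11107 compared. Pearson's r was 0.922, 0.904, 0.887, 0.875 and 0.861 for these genes in that order, and Spearman's rho was 0.874, 0.921, 0.859, 0.832 and 0.776. Without 6h replicate 1 and Day7 replicate 3, the libraries at the extremes of the mean, r was 0.823, 0.905, 0.860, 0.709 and 0.758. All 5 had their highest value in 6h replicate 1, such as 43.9 for Arhgap15 and 221 for Selplg, and Day7 replicate 3 had 0 of Arhgap15, Map2k6, Selplg and Ms4a4c. The genes were chosen for this likeness, and the points share library depth and cell mixture, so the coefficients are a description.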

How the data were processed

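Gene expression of iChip-enriched blood was measured in 12 libraries, grouped by the time in their titles. The authors deposited a table they named CPM. The submitters' processing notes list STAR 2.7.10, HTSeq 2.0.1 and the build mm9, and no source used here names the scaling step. The deposited values are treated as a signal, since column sums differ between libraries. In each column 100% of values were whole multiples of the value of 1 read, within 0.001 reads, so reads were recovered, and read totals ran from 5098395 to 12379041. Columns left unused numbered 0.

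Log2(value + 1) was tested with limma 3.58.1 (R 4.3.3), trend option on, over all 12 libraries, for genes reaching a value of 1 in 4 or more libraries, with Benjamini-Hochberg adjustment over all tested genes and a threshold of 0.05. Such folds understate changes of low genes. edgeR 4.0.16 (quasi-likelihood) and DESeq2 1.42.0 were run on the recovered reads as alternatives, and without a filter as alternatives added after the data were seen. The other alternatives were pseudocounts of 0.25 and 4, no filter, other scalings (TMM, median of ratios, all reads, non-haemoglobin reads), a replicate block, a term for Y-linked reads and leaving out each library. The same genes were tested under every scaling and with each library left out. The limma and edgeR fits, but not DESeq2, were also run on simulated data. Changes were planted there only in abundant genes, above the level of most members. That run therefore does not show whether changes in genes as low as these would be found.

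The members and lists were chosen with earlier results of these data known. Named genes are the 10 members, wider-list genes that passed or were among the 3 most abundant, and the 5 genes most like the members; 1 gene named by this rule is not reported here. Fits by edgeR, DESeq2 and limma with no filter were computed for all named wider-list genes. The other alternatives were summarised for them only in comparisons where they passed in limma. That restriction was made after many uncalled ones were seen to change sign. Uncalled ones are given as levels, apart from the calls of edgeR or DESeq2 on Klf2, Id2 and Il15ra. One listed factor and one listed macrophage marker were not matched by name. Members of the Klra, Klrb1 and Klrc families have near-identical copies that may split reads.

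Replicate numbers were checked as pairs: of 12 same-number pairs, deviations from the group means correlated at -0.231 to 0.125, with 1 over 0.1, so the numbers were not used as pairs.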

Additional observations from a re-analysis of the deposited data

Results flagged for a closer look

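In groups of 4 libraries, 1 library stood apart from the other 3 (its gap to the nearest exceeded Dixon's 95% critical value) in 21 of 65 groups of the 23 named genes that had reads. Chance flags about 1 in 20 groups of normally distributed values, a rate that need not hold for counts with many zeros. Of the 21, 8 were groups of a member, and 5 had reads in 1 library only, which sets that library apart by construction. In 6h replicate 1, Gzma stood at 165 and Prf1 at 8.59, beside Tyrobp at 244, Il2rg at 302 and Il15ra at 128. In that library the Cd3 and Cd8 chains summed to 976 units, and their part in these values was not tested. In 6h replicate 4, Klrk1 stood at 8.21 and Tbx21, from 1 read, at 0.0599, beside Fcer1g at 821, Cd226 at 79.5, Hcst at 24.0, Srgn at 1079 and Stx11 at 459. Its platelet genes summed to 22380 units, and their part was not tested. In Day1 replicate 1, Ncr1 stood at 0.865, Klrb1c at 0.989, Prf1 at 0.989 and Gzmb, from 1 read, at 0.124, beside Il2rg at 36.7. The remaining libraries that stood apart were Day7 replicate 2 for Cd226 (185), Day1 replicate 2 and Day7 replicate 3 for Hcst (9.80 and 136), and 6h replicate 2 for Id2 (384). These are deposited values, and the place of Day7 replicate 3 for Hcst depends on their scaling.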

How the results depend on the processing

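The count of members called was 0 in each comparison under every alternative run, apart from Day7 versus Day1, where it was 1 when scaled to all reads (Klrd1), 1 when scaled to reads outside haemoglobin (Klrd1) and 1 in DESeq2 with no filter (Gzmb); DESeq2 gave no adjusted p for some members. Those settings called 3963, 3553 and 1708 of all genes in Day7 versus Day1, in that order. With each library left out in turn, the count of members called ranged from 0 to 0. The replicate block gave 0 members in each comparison and changed no member's call, and the numbers do not pair the libraries; it called 45, 571 and 156 of all genes for Day1 versus 6h, Day7 versus Day1 and Day7 versus 6h, against 19, 648 and 99 without it. Counts over all genes ranged widely, from 0 (pseudocount 4, no filter) to 1207 (scaled to all reads) for Day1 versus 6h, from 0 (a term for Y-linked reads) to 3963 (scaled to all reads) for Day7 versus Day1, and from 0 (scaled to all reads) to 1060 (DESeq2) for Day7 versus 6h. edgeR called 9, 1 and 84 genes and DESeq2 193, 1766 and 1060; with no filter limma called 0, 57 and 13. With a library left out the counts ran over 2 to 56, 3 to 1187 and 2 to 693.

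Uncalled log2 fold changes changed sign as follows, and the cause was not tested. For Day7 versus Day1, Nkg7 gave -0.52 scaled to all reads, -0.54 scaled to reads outside haemoglobin, -1.65 with the Y-linked term and -0.0045 in DESeq2 with the filter and -0.0045 without it, and Gzma gave -0.76 with the Y-linked term. With no filter, Tbx21 in Day7 versus Day1 gave 0.11 in edgeR, against -0.016 in limma, and Gzmb in Day1 versus 6h gave -1.04 in DESeq2, against 0.04 in limma. For Day7 versus 6h, Klrk1 gave -0.059 with a pseudocount of 4, -0.13 scaled to all reads, -0.085 with median-of-ratios scaling, -0.52 in edgeR, -0.79 in DESeq2, and -0.60 and -0.79 in these without a filter. Gzma gave -0.16 with a pseudocount of 4, -0.037 scaled to all reads, -0.23 scaled to reads outside haemoglobin, -0.23 with median-of-ratios scaling, -1.02 with the Y-linked term, -2.17 in edgeR, -2.97 in DESeq2, and -2.32 and -2.97 without a filter. Prf1 gave -0.067 with the Y-linked term, -0.63 in DESeq2, and -0.020 in edgeR and -0.62 in DESeq2 without a filter. With each library left out, Day1 versus 6h ran from -1.67 to 0.76 for Gzma and from -0.84 to 0.25 for Prf1. Day7 versus Day1 ran from -0.25 to 1.35 for Nkg7. Day7 versus 6h ran from -0.27 to 0.79 for Klrk1, -1.02 to 0.15 for Klrd1, -1.90 to 0.11 for Nkg7 and -0.60 to 1.84 for Gzma. Low reads limit all 10 genes.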
